A study of Mus musculus with 16 samples.

Results

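Pi16, Mfap4, Cd248, Fbln1, Fbln2, Lum, Dcn, Pdgfra, Dpt and Tcf21, 10 of the 16593 genes named on the array, are widely used as markers of fibroblasts. They were followed in atria of the left (LA) and right (RA) side in mice from 2 outbred strains. Every array probe annotated to them was taken, which gave 16 of the 25697 probes: 3 each for Fbln1 and Fbln2, 2 each for Cd248 and Dcn, and 1 for each of the other genes. The genes were picked with their side differences known, so that the LA and RA values below describe the genes and test nothing.

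Atrial tissue of wild-type mice labelled as 12 months old was used, 4 LA and 4 RA samples from MF1 mice (MF1_12) and 4 LA and 4 RA samples from Swiss Agouti mice (SA_12), 1 Illumina MouseRef-8 array for each of the 16 samples. All animals were untreated, with no allele or agent named for any group, and the RNA was total RNA of whole tissue. The methods text gives n = 4 mice for each dataset and no pooling. LA and RA samples would then come from the same animals, which the labels do not name. The MF1_12 mice are given as male and the SA_12 mice as female, so that strain and sex cannot be told apart. A sentence of the methods text gives a younger age for Swiss Agouti mice, but its description of the arrays gives 12 months, like the labels. The right atrial gene Bmp10 fitted the side labels, with a log2 difference of LA minus RA of -2.08 in MF1_12 and -3.65 in SA_12, and it passed in both.

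Fibroblasts of the heart lie between the muscle cells and around the vessels, where they make and turn over the collagen and elastic matrix. Many of them descend from the epicardium, the outer cell layer of the heart, and Tcf21 is needed for that descent in the mouse. The other genes code for secreted matrix proteins (Mfap4, Fbln1, Fbln2, Lum, Dcn, Dpt), a growth factor receptor (Pdgfra) and cell surface or secreted proteins that mark fibroblasts of the vessel sheath and other stroma (Cd248, Pi16).

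The deposited log2 values are centred on each probe's median, so that they compare arrays but give no level, and whether a marker was expressed above background could not be read from them. A probe was said to pass at an adjusted p under 0.05 over all probes (limma) and a fold above 1.5, and folds are given for the side with more signal against the other. In bulk tissue, fewer fibroblasts and less RNA of a gene per fibroblast cannot be told apart.

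RefSeq promoter entries (build GRCm38.p6) were matched for 6 of the 10 genes, and the 250 bases before the start are printed for 5 of them. Pi16 and Tcf21 are shown because they had the largest differences towards LA and RA, Dpt because it opposed the common side in both datasets, and Fbln1 and Fbln2 because they are of one family but lay on opposite sides in MF1_12. Capitals mark CANNTG, the E-box to which factors of the Tcf21 class bind, which reads alike on both strands.
Pi16 (chr17:29318632-29318881, plus strand): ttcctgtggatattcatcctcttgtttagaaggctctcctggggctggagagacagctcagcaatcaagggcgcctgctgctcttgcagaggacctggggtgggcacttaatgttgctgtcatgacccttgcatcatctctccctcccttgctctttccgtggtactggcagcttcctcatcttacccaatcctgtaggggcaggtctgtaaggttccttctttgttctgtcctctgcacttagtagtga
Tcf21 (chr10:22820144-22820393, minus strand): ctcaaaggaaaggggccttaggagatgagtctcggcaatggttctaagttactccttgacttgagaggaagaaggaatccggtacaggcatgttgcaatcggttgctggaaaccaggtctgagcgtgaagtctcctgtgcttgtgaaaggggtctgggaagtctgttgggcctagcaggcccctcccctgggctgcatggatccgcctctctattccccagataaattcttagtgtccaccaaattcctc
Dpt (chr1:164796413-164796662, plus strand): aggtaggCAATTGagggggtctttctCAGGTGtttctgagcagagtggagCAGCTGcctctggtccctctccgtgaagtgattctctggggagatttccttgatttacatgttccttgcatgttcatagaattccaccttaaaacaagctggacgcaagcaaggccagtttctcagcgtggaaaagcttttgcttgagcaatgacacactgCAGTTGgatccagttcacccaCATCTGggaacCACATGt
Fbln1 (chr15:85205699-85205948, plus strand): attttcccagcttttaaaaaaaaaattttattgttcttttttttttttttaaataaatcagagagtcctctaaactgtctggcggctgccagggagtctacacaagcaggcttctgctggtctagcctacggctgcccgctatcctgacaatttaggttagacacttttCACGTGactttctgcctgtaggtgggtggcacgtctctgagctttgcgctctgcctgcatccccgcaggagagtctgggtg
Fbln2 (chr6:91212514-91212763, plus strand): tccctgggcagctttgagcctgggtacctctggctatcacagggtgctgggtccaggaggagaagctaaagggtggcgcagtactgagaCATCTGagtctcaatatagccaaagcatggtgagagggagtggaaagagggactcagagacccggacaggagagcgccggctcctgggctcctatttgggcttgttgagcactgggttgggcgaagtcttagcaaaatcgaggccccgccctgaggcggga
CANNTG did not occur in the Pi16 and Tcf21 windows, and it occurred 6 times in that of Dpt and 1 time each in those of Fbln1, Fbln2 and Pdgfra. Among all 32851 promoter windows of 250 bases, 66.2% held it, with a median of 1 match. TATAAA, searched on both strands and held by 12.4% of all windows, was in none of the windows of the 6 genes. A second Fbln1 entry, which starts a little further downstream, held 2 matches of CANNTG. These are matches of letters and show no binding.

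In both datasets more of the 10 genes lay towards LA than towards RA, but the genes did not share 1 side. By the mean of a gene's probes, MF1_12 had 6 of 10 genes towards LA and SA_12 had 7 of 10, one of them Fbln1 with a mean of 0.00072, with a median log2 difference of 0.33 in each, against -0.00061 and -0.00043 over all genes. The probes towards LA were 9 of 16 in MF1_12 and 11 of 16 in SA_12, against 12836 and 13000 of all 25697 probes. In MF1_12, 4 of the 16 probes passed (0.79% of all probes), 3 towards LA and 1 towards RA (0.296% and 0.494% of all probes), which came from 3 of the 10 genes (1.05% of all genes). In SA_12, 5 of the 16 passed (0.63% of all probes), 4 towards LA and 1 towards RA (0.288% and 0.342% of all probes), from 5 of the 10 genes (0.814% of all genes). All LA arrays lay above all RA arrays for 6 probes in MF1_12 (3.22% of all probes) and 5 in SA_12 (3.46%), and all RA arrays above all LA arrays for 4 (3.77%) and 2 (3.71%). In all, 6.99% and 7.17% of all probes did not overlap. Nothing is read from these shares, since the genes were chosen on the same contrast.

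**Figure D1:**
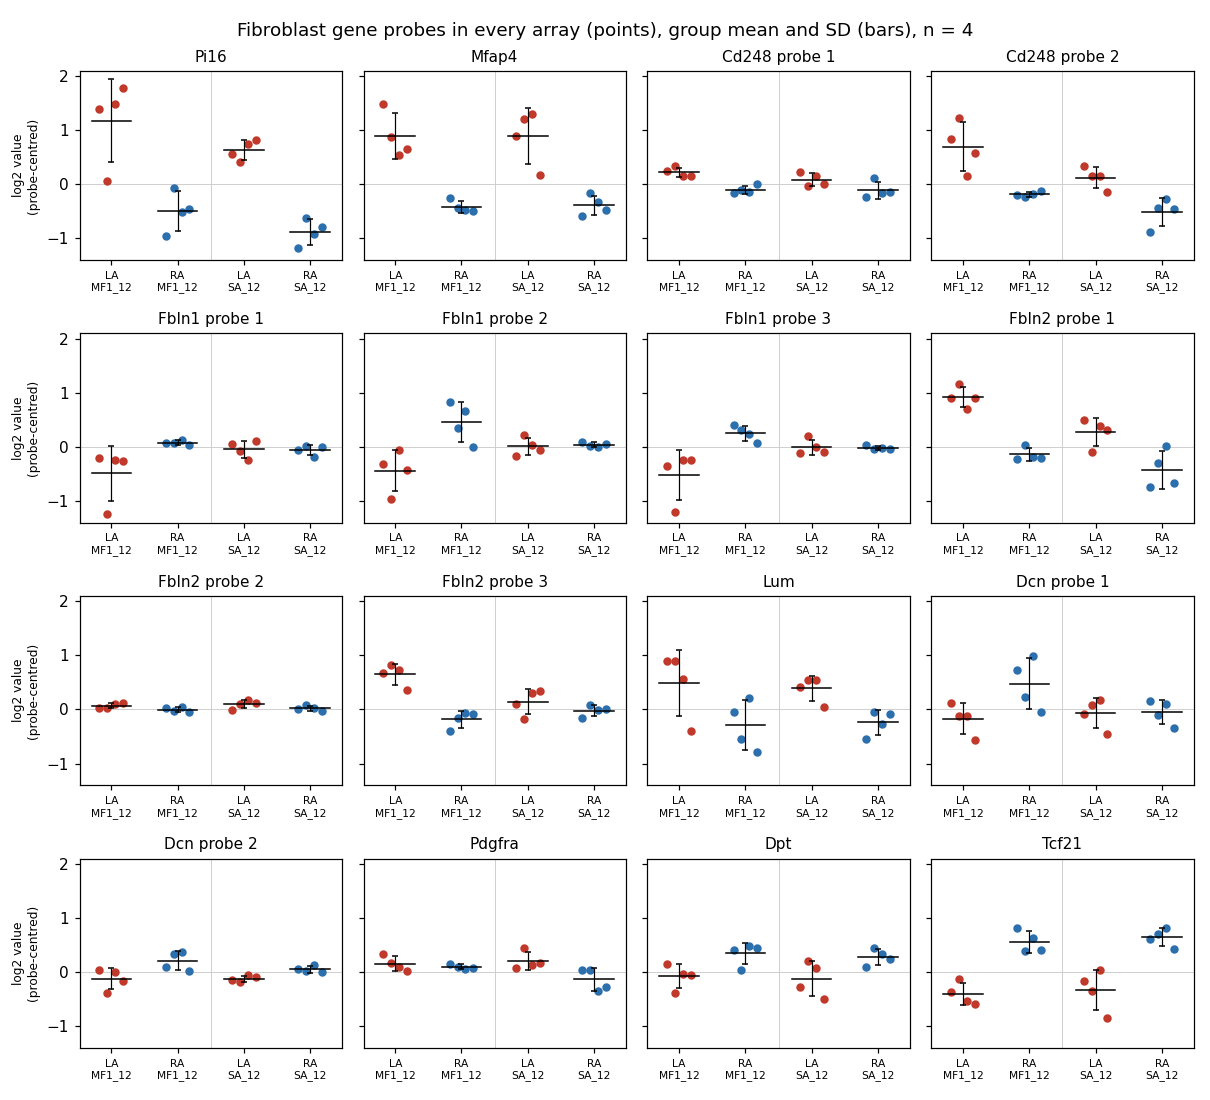
Log2 values (vertical axis, centred on each probe's median) of the 16 probes in every array, LA in red left of RA in blue, for MF1_12 and then SA_12. Points are arrays, horizontal bars group means and vertical bars SD over 4 arrays; Pi16 and Mfap4 lie above in LA, and Tcf21 lies below in LA, in both datasets without overlap.

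Pi16, a secreted or membrane-anchored protein of the CAP family that marks fibroblasts of the vessel sheath, stood furthest towards LA of the 10 genes. In MF1_12 it read 1.39, 0.06, 1.48 and 1.77 in LA arrays 1 to 4, against -0.96, -0.06, -0.51 and -0.45 in RA arrays 1 to 4. In SA_12 it read 0.56, 0.40, 0.74 and 0.81 in LA, against -1.18, -0.63, -0.92 and -0.80 in RA. LA arrays lay above RA arrays without overlap in both datasets, but in MF1_12 LA replicate 2 lay within 0.13 of the highest RA array, which is its RA partner by number. Its log2 difference was 1.67 in MF1_12 (SE 0.35, 3.19-fold) and 1.51 in SA_12 (SE 0.12, 2.85-fold), which ranked 11th and 9th towards LA among all probes. It passed in SA_12 and missed the threshold in MF1_12. It also missed it there with the replicate number as a block or with an ordinary variance. It passed in MF1_12 with array weights (1.84, adjusted p = 0.0121, limma) or with all 16 arrays in 1 fit (adjusted p = 0.00331, limma). Without MF1_12 LA replicate 2 it passed there too, with a log2 difference of 2.05.

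Cd248 (endosialin), a transmembrane glycoprotein of fibroblasts and pericytes, was measured by 2 probes of one transcript. Probe 2 read 0.83, 1.23, 0.15 and 0.58 in LA and -0.19, -0.24, -0.17 and -0.13 in RA of MF1_12, and 0.33, 0.15, 0.15 and -0.15 in LA and -0.88, -0.44, -0.26 and -0.46 in RA of SA_12. LA lay above RA without overlap in both, with log2 differences of 0.88 (SE 0.19, 1.84-fold) in MF1_12 and 0.63 (SE 0.13, 1.55-fold) in SA_12. It passed in SA_12 alone and there it fell out when any 1 of the arrays other than LA replicate 4 and RA replicate 3 was left out, with log2 differences of 0.51 to 0.66 in those 6 fits. In MF1_12 it passed without LA replicate 2 (0.70) or without LA replicate 3 (1.06). Probe 1 moved less, by 0.33 (SE 0.06) in MF1_12, with no overlap, and by 0.19 (SE 0.08) in SA_12, where LA and RA arrays overlapped.

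Pdgfra, the receptor tyrosine kinase for platelet-derived growth factors that is used to sort cardiac fibroblasts, showed little difference in MF1_12. There its 4 LA arrays read 0.33, 0.17, 0.09 and 0.01, against 0.16, 0.09, 0.05 and 0.08 in RA, a log2 difference of 0.06 (SE 0.07) that 51.0% of all probes exceeded in size. In SA_12 it read 0.08, 0.44, 0.13 and 0.16 in LA, against 0.03, 0.05, -0.35 and -0.27 in RA. All LA arrays of SA_12 lay above the RA arrays, 2 of which were close below the lowest LA array, and the log2 difference was 0.34 (SE 0.11, 1.27-fold). The difference between the datasets, MF1_12 minus SA_12, was -0.28 (SE 0.14, adjusted p = 0.692 over all probes, limma), so that it was not shown to differ.

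Mfap4, a glycoprotein bound to elastic microfibrils, was the one probe towards LA that passed in both datasets. It read 1.48, 0.87, 0.54 and 0.66 in LA and -0.25, -0.43, -0.48 and -0.49 in RA of MF1_12. In SA_12 it read 0.90, 1.20, 1.30 and 0.17 in LA and -0.59, -0.17, -0.33 and -0.47 in RA. The lowest LA array stood above the highest RA array in both datasets, by a margin that was smallest for SA_12 LA replicate 4. The log2 difference was nearly equal, 1.30 (SE 0.18, 2.47-fold) in MF1_12 and 1.28 (SE 0.21, 2.43-fold) in SA_12. In MF1_12 it missed the threshold without RA replicate 3 or without RA replicate 4, at an almost unchanged log2 difference of 1.28 in both fits.

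Fbln1 and Fbln2 code for fibulins, calcium-binding glycoproteins of elastic fibres and basement membranes, and in MF1_12 they lay on opposite sides. Fbln2 probe 1 read 0.91, 1.15, 0.70 and 0.90 in LA and -0.22, 0.04, -0.18 and -0.20 in RA, and Fbln1 probe 2 read -0.32, -0.95, -0.06 and -0.43 in LA and 0.84, 0.35, 0.67 and -0.01 in RA. For Fbln2 no LA array came near an RA array, whereas for Fbln1 probe 2 the highest LA array lay just below the lowest RA array. The log2 difference was 1.06 (SE 0.10, 2.08-fold) for Fbln2 probe 1, which passed, and -0.90 (SE 0.22, 1.87-fold higher in RA) for Fbln1 probe 2, which did not. With the replicate number as a block, which pairs the MF1_12 arrays, Fbln1 probe 2 passed too.

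The other probes of both genes differed among themselves. Fbln2 probe 3, the one annotated to another transcript of the gene, read 0.68, 0.82, 0.72 and 0.37 in LA and -0.40, -0.17, -0.07 and -0.08 in RA of MF1_12, and passed there at 0.83 (SE 0.11, 1.77-fold). Fbln2 probe 2 hardly moved in either dataset, with log2 differences of 0.07 (SE 0.05) in MF1_12 and 0.08 (SE 0.05) in SA_12, and its spread within groups was smaller than that of 93.4% of all probes in MF1_12. Fbln1 probes 1 and 3 were at -0.57 (SE 0.21) and -0.77 (SE 0.20) in MF1_12, with RA above LA in all arrays for both. In these 2 probes LA replicate 2 read -1.24 and -1.20, and the other LA arrays read -0.26 to -0.21 and -0.36 to -0.24. Without that array the 3 Fbln1 probes were at -0.32, -0.73 and -0.54, so that the size of the difference for probes 1 and 3 rested in part on 1 array and its side did not.

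In SA_12 the fibulins showed less. The 3 Fbln1 probes had log2 differences of 0.02, -0.03 and 0.01 (SE 0.08, 0.08 and 0.07), with LA and RA arrays mixed in each. Fbln2 probe 1 read 0.49, -0.09, 0.38 and 0.31 in LA and -0.75, -0.29, 0.01 and -0.68 in RA, with 1 pair of arrays crossing over. Its log2 difference was 0.70 (SE 0.17, 1.62-fold), which did not pass, and it passed without LA replicate 2 (0.82) or without RA replicate 3 (0.84). Fbln2 probe 3 was at 0.16 (SE 0.10) with overlap. None of the 6 fibulin probes passed for the difference between the datasets, MF1_12 minus SA_12. The largest were -0.87 (SE 0.25, adjusted p = 0.365) and -0.78 (SE 0.23, adjusted p = 0.384) for Fbln1 probes 2 and 3, and 0.66 (SE 0.16, adjusted p = 0.259) for Fbln2 probe 3, in limma over all probes.

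**Figure D2:**
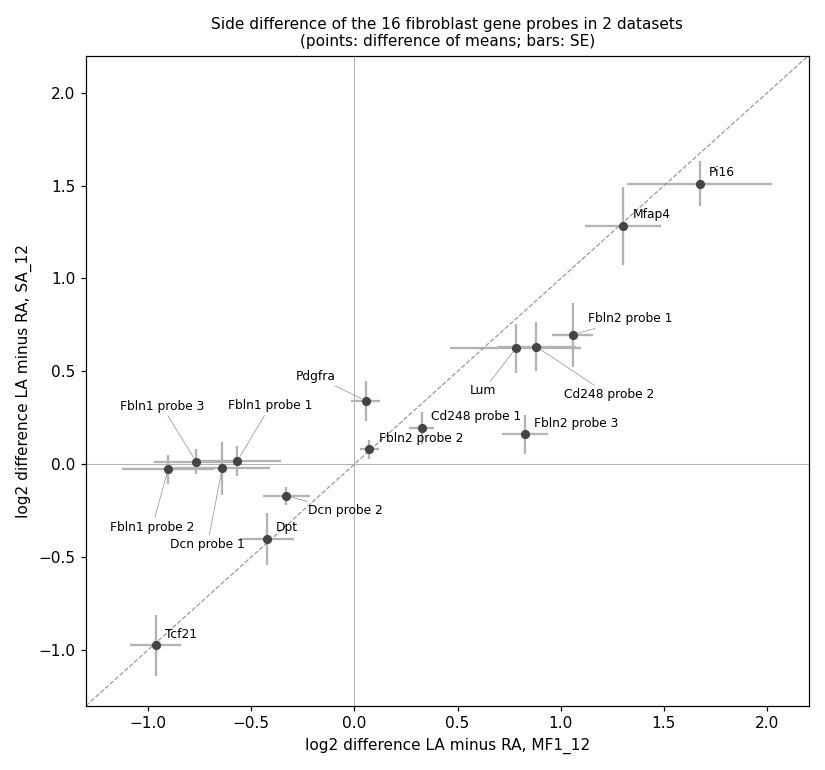
Log2 difference of LA minus RA of the 16 probes in MF1_12 (horizontal axis) and SA_12 (vertical axis), with SE bars in both directions and a dashed line of equal values. Mfap4 and Tcf21 lie on the line, and the Fbln1 probes lie at -0.90 to -0.57 in MF1_12 but near 0 in SA_12.

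Lum (lumican) and Dcn (decorin), proteoglycans that bind collagen fibrils, are neighbouring protein-coding genes on chromosome 10 and differed in side. In MF1_12, Lum read 0.90, 0.90, 0.56 and -0.39 in LA and -0.04, -0.54, 0.22 and -0.78 in RA. In SA_12 it read 0.41, 0.55, 0.54 and 0.05 in LA and -0.55, -0.05, -0.26 and -0.08 in RA. LA replicate 4 was lowest of the LA arrays in both datasets, and it overlapped with RA in MF1_12 alone. The log2 difference was 0.78 (SE 0.32, 1.72-fold) in MF1_12, which did not pass, and 0.62 (SE 0.13, 1.54-fold) in SA_12, which passed narrowly. In SA_12 it kept the threshold only without LA replicate 4, and leaving out any other array ended the call, with log2 differences of 0.52 to 0.69.

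Dcn leaned the other way. Probe 1 read 0.13, -0.11, -0.12 and -0.57 in LA and 0.73, 0.22, 0.99 and -0.05 in RA of MF1_12, and probe 2 read 0.04, -0.38, 0.01 and -0.16 in LA and 0.09, 0.34, 0.37 and 0.03 in RA. LA and RA arrays overlapped for both probes, whose log2 differences were -0.64 (SE 0.23) and -0.33 (SE 0.11), and neither passed. Within a pair of the same number, however, the LA array was below the RA array in all 4 pairs for both probes. With the replicate block the SE was 0.12 for probe 1 (adjusted p = 0.0507, limma) and 0.11 for probe 2 (adjusted p = 0.227, limma). In SA_12 they were at -0.02 (SE 0.14) and -0.17 (SE 0.05), and for probe 2 every RA array lay above every LA array. Although Lum and Dcn lay on opposite sides, the arrays of MF1_12 that were high in their group for Lum were also high for Dcn probe 1, which did not hold for the RA arrays of SA_12. The deviations of Lum and Dcn probe 1 from their group means had r = 0.74 over 16 arrays, 0.90 within MF1_12 and 0.20 within SA_12. For Lum and Dcn probe 2 the r values were 0.13, 0.19 and -0.34, so that the likeness held for probe 1 alone. These values describe arrays that share their RNA and normalization.

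Dpt (dermatopontin), which binds decorin and collagen, opposed the common side in both datasets without passing in either. It read 0.15, -0.38, -0.04 and -0.05 in LA and 0.41, 0.04, 0.48 and 0.44 in RA of MF1_12, and -0.27, 0.20, 0.08 and -0.49 in LA and 0.10, 0.44, 0.33 and 0.24 in RA of SA_12. A single RA array reached into the range of LA in each dataset, RA replicate 2 of MF1_12 and RA replicate 1 of SA_12. The log2 differences were close, -0.42 (SE 0.13, 1.34-fold higher in RA) and -0.40 (SE 0.14, 1.32-fold higher in RA). LA was lower than RA of the same number in all 4 pairs of MF1_12.

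Tcf21, the transcription factor of the group, was the one gene that passed against the common side, and it did so in both datasets. It read -0.36, -0.14, -0.53 and -0.59 in LA and 0.81, 0.38, 0.63 and 0.42 in RA of MF1_12. In SA_12 it read -0.16, -0.35, 0.03 and -0.85 in LA and 0.62, 0.71, 0.82 and 0.43 in RA. Every RA array lay above every LA array. The log2 difference was -0.96 (SE 0.12, 1.95-fold higher in RA) in MF1_12 and -0.98 (SE 0.16, 1.97-fold higher in RA) in SA_12, which ranked 65th and 42nd towards RA among all probes. Without SA_12 RA replicate 3 it missed the threshold there (-0.92). The difference between the datasets was 0.01 (SE 0.23, adjusted p = 0.995, limma).

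Across the 2 datasets, 14 of the 16 probes had differences of the same sign, as had 55.6% of all probes. The 2 exceptions were Fbln1 probes 1 and 3, whose SA_12 values were near 0. Of the 16 probes 2 passed in both datasets, 2 in MF1_12 alone and 3 in SA_12 alone. None passed for the difference between the datasets, as 2 of all probes did (0.00778%), and 4 of 16 had an unadjusted p under 0.05 in that limma fit (the 3 Fbln1 probes and Fbln2 probe 3), against 7.37% of all probes. The difference was larger in size in MF1_12 for 13 of the 16. The share over all probes was not computed, so that nothing is read from this count.

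Array LA replicate 2 of MF1_12 stood apart from the others. The SD of its deviations from the group mean over all probes was 0.226, against 0.104 to 0.154 in the other arrays of MF1_12 and 0.0951 to 0.125 in SA_12. Among the 16 probes, it was the array farthest from the mean of the LA group in 9. It deviated downwards for Pi16 and Fbln1 and upwards for Cd248 probe 2, Lum and Tcf21, so that it was not low in all of these genes at once. Without it, 6 of the 16 probes passed in MF1_12, adding Pi16 and Cd248 probe 2.

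**Figure D3:**
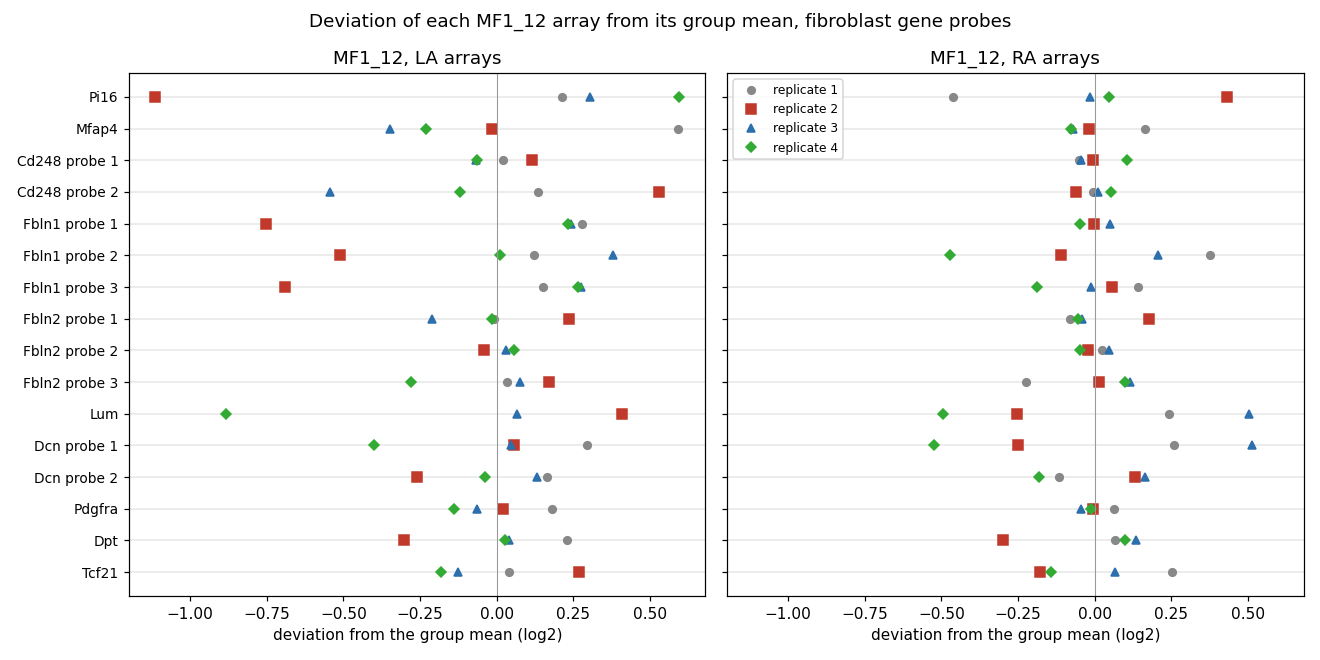
Deviation of each MF1_12 array from the mean of its group (horizontal axis, log2) for the 16 probes, LA arrays left and RA arrays right, with a symbol for each replicate number. LA replicate 2 (red squares) is farthest from the mean in 9 of the 16 probes.

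The genes whose pattern over the 16 arrays was most like that of Pi16, each probe centred within its dataset, were Ddit4l (r = 0.97), Ppp1r1b (0.96), Scara5 (0.96), Wfs1 (0.95) and Sh3gl2 (0.95). For Tcf21 they were Smad6 (0.95), Hey1 (0.94), Tbx20 (0.94), Id2 (0.94) and Unc119b (0.93). A large part of such likeness is the shared side difference. With the group means removed, r was 0.76 to 0.89 for the Pi16 genes and 0.60 to 0.76 for the Tcf21 genes. These values include MF1_12 LA replicate 2, which was low for Pi16, and were not computed without it. The genes were also picked by r on the same arrays, so that the values only describe them. None of the other 9 members was among either set. Between Pi16 and Tcf21 themselves the deviations had r = -0.52 over 16 arrays and -0.43 without MF1_12 LA replicate 2, and they had r = -0.89 within MF1_12 and -0.17 within SA_12.

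Other fibroblast genes were taken from 2 lists chosen with earlier results of these data known. Passing genes of the first list were split by side, and those of the second lay towards LA alone. Of 24 measured genes of fibroblasts found across many tissues, 1 passed towards LA and 3 towards RA in MF1_12, and 1 and 1 in SA_12. The share of all genes with a passing probe was 0.386% and 0.663% on those sides in MF1_12 and 0.35% and 0.464% in SA_12. Ly6c1, a surface antigen, was higher in LA by 0.94 (SE 0.15, adjusted p = 0.0188) in MF1_12 and 0.69 (SE 0.12, adjusted p = 0.0154) in SA_12. Wnt2, a secreted signalling protein, lay towards RA, at -0.92 (SE 0.08, adjusted p = 0.00101) in MF1_12 and -0.61 (SE 0.12, adjusted p = 0.0338) in SA_12. Igfbp6, which binds insulin-like growth factors, and Pcolce2, which aids procollagen processing, passed towards RA in MF1_12 alone. Igfbp6 was at -0.86 (SE 0.16, adjusted p = 0.0450, limma) there, against -0.01 (SE 0.15) in SA_12. The passing Pcolce2 probe was at -0.65 (SE 0.12) in MF1_12 and at -0.39 (SE 0.11) in SA_12. Neither passed for the difference between the datasets (adjusted p = 0.367 for Igfbp6 and 0.796 for Pcolce2, limma). The median of this list was 0.05 and 0.04.

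Of 39 measured general fibroblast genes, 3 passed towards LA and 0 towards RA in MF1_12, and 6 and 0 in SA_12, all by limma. At an unadjusted p under 0.05, 12 of its genes lay towards LA and 5 towards RA in MF1_12 (6.76% and 7.47% of all genes), and 10 and 3 in SA_12 (8.14% and 8.59% of all genes). The scavenger receptor Scara5 led with 2.19 (SE 0.26, adjusted p = 0.00558) in MF1_12 and 2.05 (SE 0.12, adjusted p = 2.3e-05) in SA_12, followed by the chemokine Ccl11 with 1.25 (SE 0.21, adjusted p = 0.0264) and 1.67 (SE 0.23, adjusted p = 0.00586). The chemokine Cxcl14 also passed in both, and Entpd2, which breaks down extracellular nucleotides, Htra3, a serine protease, and Mmp2, a matrix metalloprotease, passed in SA_12 with all arrays in the fit. Without LA replicate 2, Entpd2 (1.07) and Mmp2 passed in MF1_12 too, so that 5 genes did. The median of the list was 0.25 in MF1_12 and 0.06 in SA_12, and 0.10 in MF1_12 without LA replicate 2.

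Within the protein families of the 10 genes, few relatives passed, on either side. None of 14 other small leucine-rich proteoglycans passed on either side in either dataset (limma), and at an unadjusted p under 0.05, 0 lay towards LA and 4 towards RA in MF1_12, and 0 and 3 in SA_12, where the shares of all genes are those given above. Of 22 other fibulins and proteins of elastic microfibrils, 1 passed, Emilin2, an elastin-associated glycoprotein, at -1.45 (SE 0.14, adjusted p = 0.00221) in MF1_12 and -1.16 (SE 0.15, adjusted p = 0.00293) in SA_12, opposite to Mfap4 and Fbln2. At an unadjusted p under 0.05, 3 genes of this list lay towards LA and 3 towards RA in MF1_12, and 5 and 5 in SA_12. Eln (elastin) and Loxl1, which cross-links it, were at 0.98 (SE 0.41) and 0.75 (SE 0.31) in MF1_12 without passing, on the side of Mfap4, and at 0.38 (SE 0.17) and 0.09 (SE 0.07) in SA_12. Of 12 factors of the Tcf21 class and its partners, 1 passed, Msc (musculin), a close relative of Tcf21, at -1.33 (SE 0.18, adjusted p = 0.0112) and -1.27 (SE 0.15, adjusted p = 0.00172). Msc read -0.86, -1.20, -0.74 and -0.29 in LA and 0.58, 0.42, 0.38 and 0.84 in RA of MF1_12, on the side of Tcf21 with no overlap. None of 6 PDGF ligands and receptors passed (limma), and at an unadjusted p under 0.05, 2 lay towards LA and 1 towards RA in MF1_12 and 0 in SA_12. Of 9 relatives of Pi16 and Cd248, Thbd alone passed, towards LA like Cd248, in SA_12.

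Markers of other cells of the atrial wall were set beside these values. Of 17 epicardial and mesothelial markers, 4 passed towards RA in MF1_12 (Upk3b, Wt1, Dmkn and Krt7) and 0 in SA_12 (limma). At an unadjusted p under 0.05, 1 lay towards LA and 8 towards RA in MF1_12, and 0 and 4 in SA_12. Wt1, an epicardial transcription factor, was at -1.02 (SE 0.12, adjusted p = 0.00577) in MF1_12 and -0.55 (SE 0.17, adjusted p = 0.181) in SA_12. The mean of this list ranged over -0.23 to -0.05 in LA and 0.02 to 0.25 in RA arrays of MF1_12, without overlap, and over -0.16 to 0.02 in LA and -0.07 to 0.29 in RA arrays of SA_12. Its side in MF1_12 was that of Tcf21, Dpt, Dcn and Fbln1, and its part in their values was not tested.

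Smooth muscle and pericyte markers leaned towards LA, the side of Cd248, with 15 of 16 genes above 0 in MF1_12 and 10 of 16 in SA_12. Mcam (-0.41), Notch3 (-0.31) and Pdgfrb (-0.21) were among those towards RA in SA_12. At an unadjusted p under 0.05 (limma), 5 genes lay towards LA and 1 towards RA in MF1_12, and 5 and 2 in SA_12. The mean of this list ranged over -0.01 to 0.20 in LA and -0.16 to -0.0036 in RA of MF1_12, which overlapped. In SA_12 it ranged over -0.03 to 0.43 in LA and -0.12 to -0.03 in RA. Vtn, the adhesion protein vitronectin, passed in both at 1.10 (SE 0.09, adjusted p = 0.00101) and 0.76 (SE 0.07, adjusted p = 0.000369), and Rgs5, a pericyte marker, in SA_12 alone at 1.10 (SE 0.19, adjusted p = 0.0152). Macrophage markers had medians of -0.24 in MF1_12 and -0.32 in SA_12, but not all lay towards RA: Mrc1, a mannose receptor, was at 0.77 (SE 0.24) and 0.56 (SE 0.12), and Folr2, a folate receptor, at 0.23 (SE 0.19) and 0.31 (SE 0.09). Of the 12 genes, 3 passed towards RA in SA_12 (C1qb, Cd163 and Lyve1) and 0 in MF1_12 (limma). At an unadjusted p under 0.05, 1 gene lay towards LA and 4 towards RA in MF1_12, and 2 and 8 in SA_12. With the replicate block Mrc1 passed towards LA and Cd163 and Lyve1 towards RA in MF1_12. Their list mean ranged over -0.18 to 0.39 in LA and 0.08 to 0.30 in RA of MF1_12, and over -0.22 to 0.02 in LA and 0.05 to 0.16 in RA of SA_12. The part of these cells in the fibroblast gene values was not tested.

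**Figure D4:**
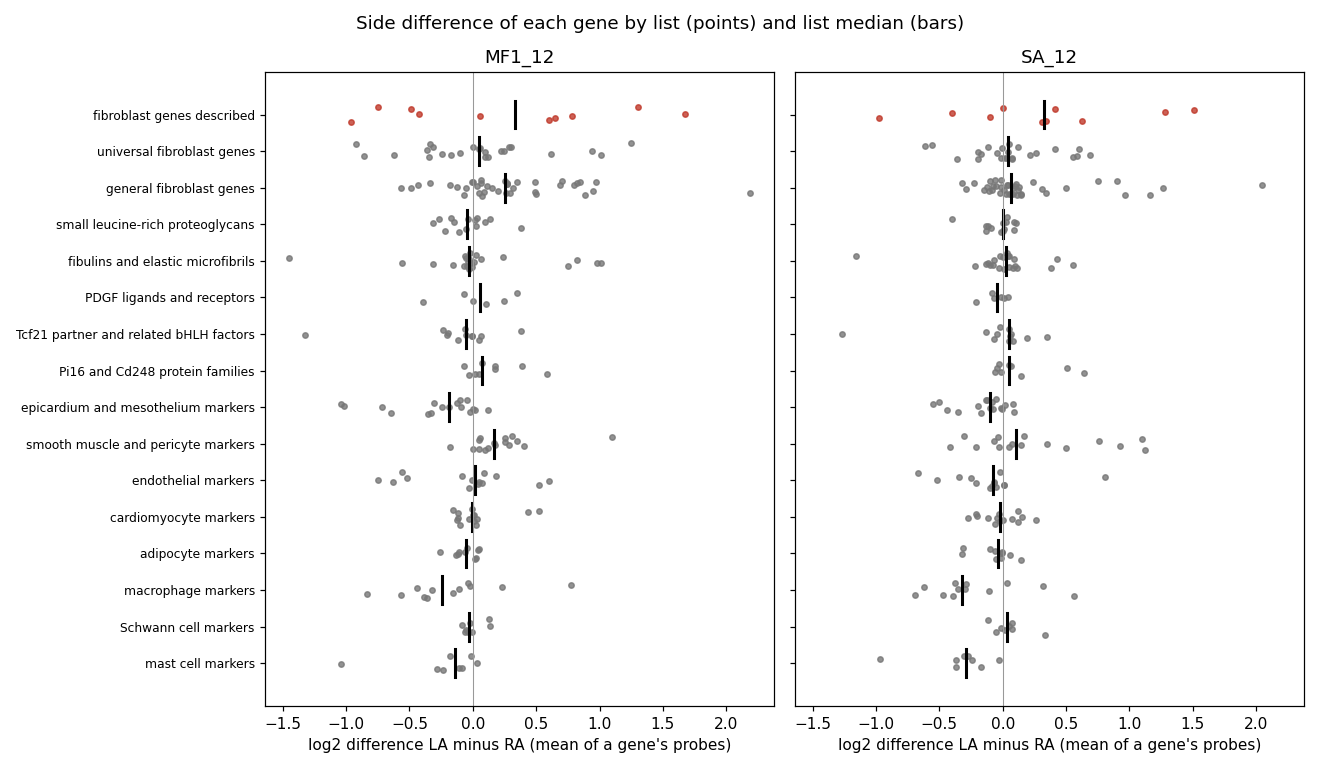
Log2 difference of LA minus RA (horizontal axis) of every measured gene, as the mean of its probes, in the 10 fibroblast genes (red) and 15 other lists (grey), with list medians as black bars, for MF1_12 and SA_12. The 10 genes spread from -0.96 to 1.67 in MF1_12, with a median of 0.33, and the other fibroblast lists have medians of 0.05 to 0.25 there.

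Endothelial, cardiomyocyte, adipocyte and Schwann cell markers had medians between -0.08 and 0.03 in both datasets. Of 14 endothelial markers, 1 passed on each side in each dataset (Gpihbp1 towards LA and Pecam1 towards RA in MF1_12, Aqp1 towards LA and Eng towards RA in SA_12). With the replicate block, Gpihbp1 missed the threshold in MF1_12 (0.60, adjusted p = 0.05002, limma) and Eng passed there (-0.75, adjusted p = 0.00858, limma), so that both calls lay towards RA. Without LA replicate 2 of MF1_12, 2 passed on each side (Aqp1 and Gpihbp1, Emcn and Eng). Endothelial genes at an unadjusted p under 0.05 (limma) were 2 towards LA and 4 towards RA in MF1_12, and 1 and 4 in SA_12. None of the 14 cardiomyocyte, 10 adipocyte and 8 Schwann cell markers passed (limma), but Actc1, a cardiac actin, passed towards LA in MF1_12 with the block, and Pln, a regulator of the calcium pump, without LA replicate 2. At an unadjusted p under 0.05, the cardiomyocyte list had 1 gene towards LA and 0 towards RA in MF1_12, and 3 and 4 in SA_12. The adipocyte list had 0 and 1 in MF1_12 and 0 and 0 in SA_12, and the Schwann cell list 0 and 1 in MF1_12 and 1 and 2 in SA_12. Mast cell markers lay towards RA, with medians of -0.14 in MF1_12 and -0.29 in SA_12, and 2 of 8 passed in SA_12 (Cpa3 and Hdc), Hdc also in MF1_12 with the block. Those at an unadjusted p under 0.05 (limma) were 0 towards LA and 3 towards RA in MF1_12, and 0 and 7 in SA_12.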

How the data were processed

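Total RNA of LA and RA was hybridized to Illumina MouseRef-8 arrays. The authors read the signals in Genome Studio, applied quantile normalization in GeneSpring and subtracted every probe's median. The log2 values they deposited were used as they are. A second table of signals was not used, because its 16 columns carry no name tied to a sample. Probes were named by the platform annotation: 23978 of 25697 had 1 gene symbol and 1719 none. For each dataset on its own, LA was set against RA by limma 3.58.1 (lmFit, eBayes, R 4.3.3, 4 arrays per group, no block), with Benjamini-Hochberg adjustment over all probes, and the difference between datasets on all 16 arrays. This fit leaves out the pairing by replicate number, also for the main values of MF1_12, and the replicate block is given as an alternative. The number of arrays limits the precision, and p-values measure the spread between samples, whose animals the labels do not name. The fit was tested on simulated data.

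The 10 genes and all lists were chosen with earlier results of these data known. Named genes of a list were up to 4 that passed with the largest difference, and for likeness the 5 genes with the highest r. Bmp10, Htra3, Mmp2, Eln, Loxl1, Mcam, Notch3, Pdgfrb, Mrc1, Folr2, Emcn, Actc1 and Pln were named after their values were seen. Deviations of LA and RA arrays of the same replicate number correlated at 0.23 to 0.499 in MF1_12, which were taken as pairs. In SA_12 they correlated at -0.112 to 0.138 and were not taken as pairs. There LA replicate 2 with RA replicate 1 (0.33) and LA replicate 1 with RA replicate 2 (0.231) correlated more. Whether those arrays come from the same animals was not tested. The alternatives were a replicate block, an ordinary variance, a fit of all arrays, array weights, the adjusted p alone, a common median and leaving out each array.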

Additional observations from a re-analysis of the deposited data

Results flagged for a closer look

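Of 64 groups of 4 arrays (16 probes in 4 groups), 4 held an array that stood far from the rest by Dixon's test. Chance gives about 1 in 20, so that this number is near the chance share. All 4 groups were in MF1_12, and the Fbln1 probes among them share 1 gene and 1 array, so that they are not separate events. For Fbln1 probe 1 the lowest LA array, replicate 2, read -1.24, and the others -0.26 to -0.21. For Fbln1 probe 3 the same array read -1.20, and the others -0.36 to -0.24. For Fbln2 probe 1 the highest RA array, replicate 2, read 0.04, and the others -0.22 to -0.18. For Dpt the lowest RA array, also replicate 2, read 0.04, and the others 0.41 to 0.48. All 4 values came from the pair numbered 2, and their cause was not tested.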

How the results depend on the processing

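The numbers of probes passing are given first over all probes and then among the 16. In MF1_12 (203 and 4) they were 51 and 1 with an ordinary variance and 346 and 5 with the adjusted p alone. With all 16 arrays in 1 fit they were 298 and 8, which added Pi16, Cd248 probe 2 and Fbln1 probes 2 and 3. With the replicate block they were 292 and 5, which ended no call of the 16 and added Fbln1 probe 2. Leaving out 1 array gave 117 to 289 and 3 to 6, the highest of both without LA replicate 2. In SA_12 (162 and 5) they were 37 and 1 with an ordinary variance and 518 and 5 with the adjusted p alone. With all 16 arrays in 1 fit they were 120 and 4, which ended the calls of Cd248 probe 2 and Lum and added Fbln2 probe 1. The replicate block gave 165 and 3 in SA_12, where arrays of the same number were not taken as pairs. Leaving out 1 array gave 134 to 196 and 3 to 5. For the difference between datasets (2 and 0) the first number was 0 with the block, 5 with array weights and 0 to 15 without 1 array, 15 without MF1_12 LA replicate 2, and the second was 0 in each. A common median of the arrays and array weights changed no other count by over 1.5 times. No probe of the 16 that passed changed its side under any of these settings. With 1 array left out, the sign changed in 1 of 128 values in MF1_12 (Pdgfra) and 8 of 128 in SA_12 (Fbln1 and Dcn probe 1), all of probes near 0. Without MF1_12 LA replicate 2, chosen after seeing the data, 5 of the 10 genes had a passing probe in that dataset, against 3. The cause of these changes was not tested. Since each probe is centred and no detection value was used, probes near background cannot be recognised, and their folds may be too small.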
